A study of Mus musculus with 4 samples.

Results

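Synaptic vesicle release machinery is described here for the striatum of a knock-in series for Huntington's disease, as 56 genes that encode vesicle proteins, SNAREs, active zone proteins and endocytic proteins. The genes were taken from a list of 56 names where the mean FPKM (fragments per kilobase of transcript, scaled to the depth of the library) over the 4 libraries was at least 1. All 56 passed, the lowest mean being 2.55 FPKM for Cplx3, out of 29144 features in the table. Poly A+ RNA of dissected striatum was sequenced from C57BL/6J mice aged 21 weeks, as paired reads of 50 bases. Each of 4 genotypes is represented by 1 library. HDQ+/+ is the wild type, HDQ150/150 and HDQ200/200 carry a mutant allele on both chromosomes, and HDQ315/+ carries 1 mutant and 1 wild-type allele, so the highest allele number was measured only beside a normal copy. Neither the sex of the mice nor how many contributed to a library is stated. Values for the 4 libraries are listed in the order HDQ+/+, HDQ150/150, HDQ200/200, HDQ315/+, and ratios for the mutants in the same order.

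At a synapse, vesicles filled with transmitter are docked and primed at the active zone by scaffolds such as RIM, Munc13, Bassoon and Piccolo. The vesicle SNARE synaptobrevin (Vamp genes) then zips together with syntaxin and SNAP-25 on the plasma membrane, complexin holds the assembled complex, and synaptotagmin triggers fusion when calcium enters. NSF and its SNAP adaptors take the spent complexes apart, while dynamin, endophilin and synaptojanin recover the membrane. In the striatum this machinery sits in the terminals of projection neurons and interneurons, whose mRNA is local, and in the terminals of cortical, thalamic and midbrain axons, whose mRNA lies mostly in cell bodies outside the striatum.

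With 1 library a genotype there is no spread between animals, no p-value and no replicate check, and intervals cover counting error only. Changes are differences of log2(FPKM + 1), which understate the change of low genes, and a gene is called higher or lower from 1.5-fold on that scale (0.58 in log2 units). The 4 libraries held 25058800 to 36877600 fragments, of which the 56 genes took 1.47% to 1.71%, and each gene was read by 154 to 63223 fragments in a library. In bulk tissue fewer cells of a type and less RNA per cell cannot be told apart. The libraries also differed in markers of other cells. Of 11 cortical glutamatergic neuron markers 9 were higher and none lower in HDQ150/150 (against 3% and 3.34% of all genes tested). In HDQ200/200 7 were higher and 1 lower (against 5.38% and 8.8%), and in HDQ315/+ 2 were higher and 2 lower (against 2.91% and 2.13%). Their summed level was 1145, 1497, 912 and 1149 FPKM over the 4 libraries, of which Nrgn took 853, 928, 471 and 811 FPKM. Of 12 striatal projection neuron markers 11, 11 and 6 were lower in the same order, against 3.34%, 8.8% and 2.13% of all genes. Their summed level was 3612, 1573, 1522 and 2376 FPKM over the 4 libraries. Of 8 striatal interneuron markers 1 was higher in each mutant, against 3%, 5.38% and 2.91% of all genes. Lower were 2, 3 and 1 of them, against 3.34%, 8.8% and 2.13%. The interneuron sum was 520, 659, 341 and 643 FPKM, of which Sst took 333, 419, 210 and 423 FPKM. Lists for astrocytes, oligodendrocytes, microglia and endothelium were also read and are not reported here. The summed level of 8 thalamic markers was 25.6, 26.1, 31.8 and 129 FPKM. No count of calls is given for the thalamic list, because Gbx2 passed the minimum only through HDQ315/+ (4.60 FPKM). The summed level of 6 choroid plexus markers was 1558, 67.9, 53.8 and 313 FPKM, of which Ttr took 1520, 63.9, 49.2 and 305 FPKM. That of 6 liver markers was 1.19, 1.46, 0.608 and 157 FPKM, with Fgb, Serpina1a and Ahsg at 0 in at least 1 library. Members of these lists passed the minimum mainly through the library where they are high, so no count of calls is given for them. No marker of the cortical, thalamic or projection neuron lists was at 0 in any library. Their part in the changes given next was not tested.

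The release genes were abundant in the wild-type library, with a median of 33.0 FPKM against 9.99 FPKM for the 12865 genes tested, and 48 of the 56 lay above that median. The highest level was that of Snap25, which encodes the plasma membrane SNARE SNAP-25, at 637 FPKM. Vamp2, the main vesicle SNARE of the forebrain, followed at 316 FPKM and Rab3a, the vesicle GTPase, at 240 FPKM. Cplx3 (1.77 FPKM), Syt17 (2.68 FPKM) and Unc13b (3.04 FPKM) stood lowest. Among the 18 genes called in at least 1 mutant, the wild-type levels ran from 1.77 FPKM (Cplx3) to 209 FPKM (Syp). The remaining 38 genes stayed under the fold size in all 3 mutants. Of all genes tested, 6.34%, 14.2% and 5.04% were called in HDQ150/150, HDQ200/200 and HDQ315/+. The share called in at least 1 mutant was not computed, so the 18 cannot be set against it.

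In HDQ150/150 the release genes were higher more often than lower. Of the 56 genes 10 rose, led by Stx1a, which encodes the plasma membrane SNARE syntaxin 1A, and Sh3gl2, which encodes endophilin A1. Only 3 fell, among them Syt6 and the priming gene Unc13c. These are 17.9% higher and 5.36% lower, where 3% of all genes tested were higher and 3.34% lower (6.34% in all). The median log2 ratio of the 56 was 0.32 against −0.00 for all genes tested, and 43 of the 56 lay above 0. Correction for transcript length, by subtracting the median of genes of like length, gave a median of 0.35. It left 12 higher and 1 lower (21.4% and 1.79%, against 3.06% and 3.09% of all genes).

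In HDQ200/200, 7 of the 56 genes rose and none fell by 1.5-fold, with Cadps2, a priming gene of dense-core vesicles, and Pclo, the gene of the active zone scaffold Piccolo, at the top. The background was 5.38% higher and 8.8% lower over all genes tested (14.2% in all), against 12.5% and 0% of the release genes. Their median log2 ratio was 0.31 against −0.05 for all genes. Long transcripts were higher in this library throughout the table, and after length correction 4 release genes were higher (7.14%, against 3.39% of all genes) and the median was 0.16.

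In HDQ315/+ the median of the release genes lay near that of all genes. Syt17, Syp, Vamp1 and Sh3gl2 rose and Syt2 fell, which is 7.14% higher and 1.79% lower, where 2.91% and 2.13% of all genes tested were called (5.04% in all). The median was 0.08 against 0.04 for all genes, and 32 of the 56 genes lay above 0. Centring on the median of all genes ended the calls of Vamp1 and Sh3gl2, leaving 2 higher (3.57%, against 2.29% of all genes).

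All 3 comparisons share the wild-type library. Its level was the lowest of the 4 libraries for 22 of the 56 genes, where it was lowest for 15.3% of all genes tested, and the highest for 4 of them, against 15.7% of all genes. HDQ150/150 was highest for 25 of the 56, against 15.3% of all genes, HDQ200/200 for 23, against 32.0%, and HDQ315/+ for 4, against 36.9%. No gene of the 56 was called higher in one mutant and lower in another. The share of all genes tested with such opposite calls was not computed.

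**Figure D1:**
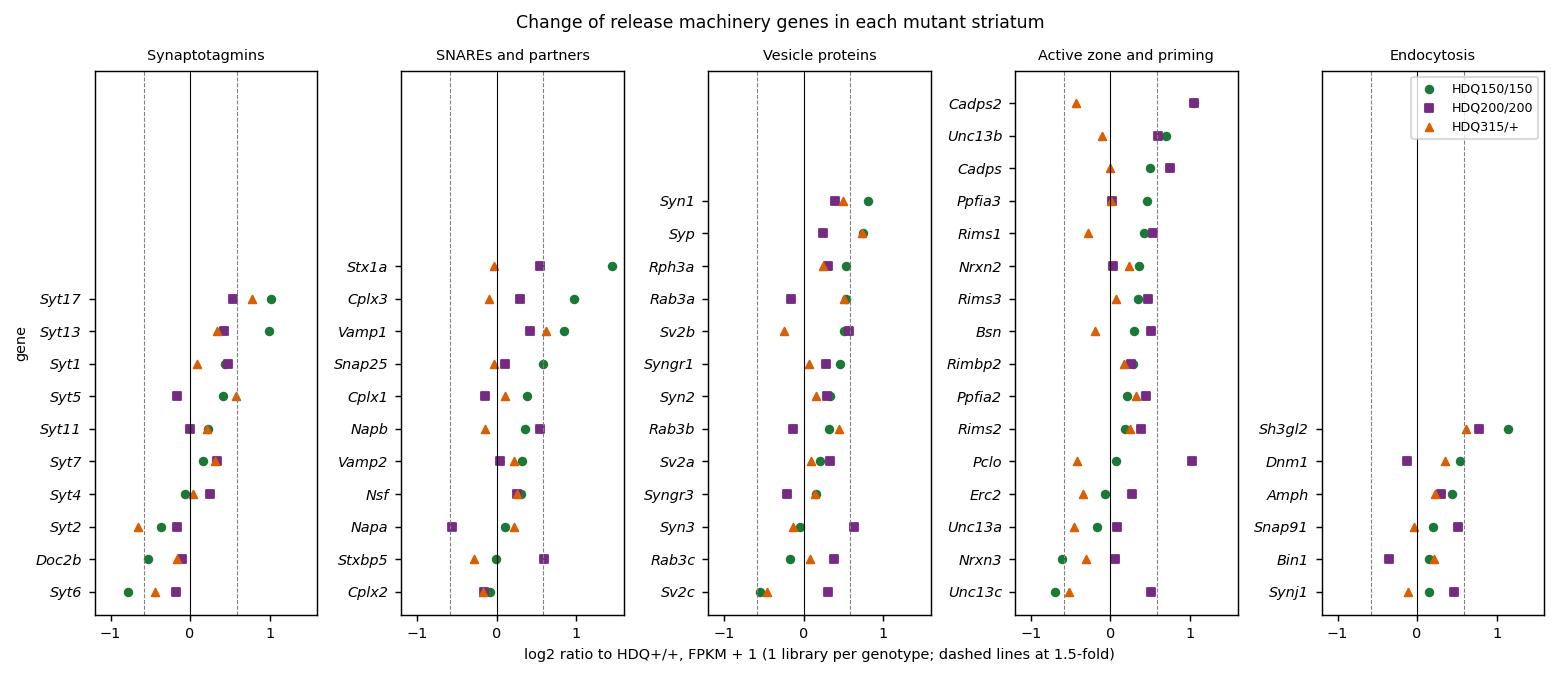
Log2 ratio to HDQ+/+ (FPKM + 1, horizontal axis) of each of the 56 genes in 5 groups by role, with 1 library per genotype and dashed lines at 1.5-fold. HDQ150/150 (green circles) lies right of 0 for 43 genes, HDQ200/200 (purple squares) for 44 and HDQ315/+ (orange triangles) for 32.

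Sh3gl2 was the only one of the 56 genes called higher in all 3 mutants, a rule that 26 of the 12865 genes tested (0.202%) met. Endophilin A1 bends membrane and recruits synaptojanin during vesicle recovery. Its level was 42.2, 94.6, 72.8 and 65.4 FPKM over the 4 libraries, from 3877, 5520, 6194 and 4164 fragments. All 3 mutants stood above the wild type, HDQ150/150 most, with log2 ratios of 1.14, 0.77 and 0.62. The ratios of scaled counts to HDQ+/+ were 2.32 (95% interval 2.22 to 2.41), 1.83 (1.76 to 1.91) and 1.55 (1.49 to 1.62). The HDQ315/+ value fell under the fold size after length correction and after median centring (0.58 each, just below it). The gene lies on chromosome 4, 85205443 to 85389379 (mm10).

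Promoters are shown for the gene called in all 3 mutants (Sh3gl2), for the gene with the largest change in HDQ150/150 (Stx1a), and for a called gene with an arm of a neuronal repressor site (Syn1). Each runs from 250 bases before to 50 bases after a RefSeq start, on the gene's strand, in GRCm38.p6, the mm10 build. Sh3gl2 is at chr4:85205206-85205505 (plus strand), Syn1 at chrX:20920869-20921168 (minus strand) and Stx1a at chr5:135023232-135023531 (plus strand). Capitals mark matches on either strand to TGACGTCA (the cAMP response element), TTCAGCACC (the left arm of RE1, the element bound by the neuronal gene repressor REST) and GGGCGG (the GC box).
Sh3gl2: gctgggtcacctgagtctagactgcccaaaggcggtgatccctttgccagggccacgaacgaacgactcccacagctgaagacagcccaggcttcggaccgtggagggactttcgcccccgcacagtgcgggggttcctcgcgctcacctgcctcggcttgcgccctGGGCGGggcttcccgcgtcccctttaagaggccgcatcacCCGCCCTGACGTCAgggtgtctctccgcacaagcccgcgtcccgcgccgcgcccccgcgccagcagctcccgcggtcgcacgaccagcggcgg
Syn1: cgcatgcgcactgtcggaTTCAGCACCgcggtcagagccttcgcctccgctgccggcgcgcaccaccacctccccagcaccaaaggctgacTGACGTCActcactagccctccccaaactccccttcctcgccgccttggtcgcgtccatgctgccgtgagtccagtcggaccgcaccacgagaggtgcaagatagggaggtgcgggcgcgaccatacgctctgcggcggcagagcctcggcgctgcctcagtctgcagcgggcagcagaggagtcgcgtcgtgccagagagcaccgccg
Stx1a: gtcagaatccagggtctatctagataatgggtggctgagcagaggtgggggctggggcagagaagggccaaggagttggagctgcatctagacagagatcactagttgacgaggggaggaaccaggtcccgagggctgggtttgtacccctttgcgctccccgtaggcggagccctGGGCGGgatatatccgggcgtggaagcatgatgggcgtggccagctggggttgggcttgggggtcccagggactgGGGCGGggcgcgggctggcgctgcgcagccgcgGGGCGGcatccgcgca
In Sh3gl2 a GC box on the opposite strand directly adjoins the cAMP response element, so they read as 1 run of capitals.

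RefSeq promoters were at hand for 43 of the 56 genes. TGACGTCA was found in 3 of the 43 (6.98%), namely Syn1, Sh3gl2 and Napa, and in 1.79% of the 32851 promoters of the table. TTCAGCACC was found in 3 (6.98%, against 0.371%), namely Syn1, Unc13a and Ppfia3, and the right arm of RE1, given by name alone, in 1, Unc13a (2.33%, against 0.137%). GC boxes were in 32 of the 43 (74.4%, against 35.7%), TATAAA in 4.65% (against 13.6%), and the median base composition was 62.7% G and C against 52.7% over all promoters. The NRF1 motif, given by name alone, was found in Stxbp5 and Bsn (4.65%, against 0.615%), and GCGTGGGCG, bound by Egr factors, in Unc13a (2.33%, against 0.612%). Of the 3 genes with the left RE1 arm, Syn1 was called in HDQ150/150 and the other two were not called in any mutant. For 32 of the 43 genes the start used lay within 100 bases of the edge of the feature in the deposited table. Among the genes with a match named above, it lay farther off for Unc13a (19271 bases), Ppfia3 (4156 bases) and Napa (272 bases). A match is a run of letters and not a shown binding site.

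Among the synaptotagmins and Doc2b, the calcium sensors and their relatives, 2 genes rose and 1 fell in HDQ150/150. None was called in HDQ200/200, and 1 rose and 1 fell in HDQ315/+. These are 20%, 0% and 10% higher of 10 genes, against 3%, 5.38% and 2.91% of all genes tested. The lower shares are 10%, 0% and 10%, against 3.34%, 8.8% and 2.13%. Syt1, the sensor of fast synchronous release, stood at 184, 249, 256 and 196 FPKM, all ratios being under the fold size (0.44, 0.48 and 0.09). Syt13, a member that does not bind calcium, stood at 15.3, 31.5, 20.9 and 19.6 FPKM in the same order. It was highest in HDQ150/150, where it rose (log2 ratio 0.996, ratio of scaled counts 2.16, interval 2.05 to 2.28), with 0.43 and 0.34 in the other mutants. Syt17, a low-level relative, stood at 2.68, 6.44, 4.33 and 5.30 FPKM from 295, 457, 442 and 407 fragments. It rose in HDQ150/150 (1.02) and HDQ315/+ (0.78), and HDQ200/200 was at 0.53, or 0.65 after length correction.

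Syt6 went the other way, at 32.2, 18.4, 28.2 and 23.5 FPKM, lowest in HDQ150/150 where it fell (−0.78; ratio of scaled counts 0.590, interval 0.561 to 0.620). The remaining mutants were at −0.18 and −0.44. Syt2, the fast sensor used in place of Syt1 at many brainstem and interneuron synapses, stood at 9.05, 6.79, 7.95 and 5.40 FPKM. It was lowest in HDQ315/+, where it fell (−0.65; 0.617, interval 0.577 to 0.660), a call that ended after length correction (−0.53). Doc2b, a high-affinity calcium sensor, was at −0.53, −0.11 and −0.16. Syt4, Syt5, Syt7 and Syt11 lay between −0.17 and 0.57 in all 3 mutants.

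Of the 11 SNAREs and their binding proteins 3 rose in HDQ150/150, 1 in HDQ200/200 and 1 in HDQ315/+, and none fell. These are 27.3%, 9.09% and 9.09% higher, against 3%, 5.38% and 2.91% of all genes tested. Of all genes 3.34%, 8.8% and 2.13% were lower, so few falls would be looked for among 11. Stx1a had the largest change of all 56 genes in HDQ150/150: its level was 19.3, 54.5, 28.7 and 18.9 FPKM, from 2031, 3707, 2838 and 1483 fragments. HDQ150/150 stood far above the others (1.45; ratio of scaled counts 2.97, interval 2.81 to 3.14), HDQ200/200 lay just under the fold size (0.55, or 0.78 after length correction) and HDQ315/+ was level with the wild type (−0.03). Among the partner SNAREs, Snap25 stood at 637, 955, 681 and 621 FPKM, highest in HDQ150/150 at a ratio just under the fold size (0.58, passing it with median centring at 0.59 and after length correction at 0.63).

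Vamp1, the vesicle SNARE that replaces Vamp2 in many fast-spiking and brainstem neurons, stood at 24.1, 44.0, 32.4 and 37.5 FPKM. It rose in HDQ150/150 (0.84) and HDQ315/+ (0.62, ending at 0.57 with median centring) and was at 0.41 in HDQ200/200. Vamp2 itself stood at 316, 394, 324 and 367 FPKM (0.32, 0.04 and 0.21). Cplx3, the complexin of retinal ribbon synapses and of deep cortical cells, was low at 1.77, 4.45, 2.40 and 1.59 FPKM, from 228, 366, 272 and 154 fragments. It rose in HDQ150/150 alone (0.98; ratio of scaled counts 2.61, interval 2.21 to 3.10). Cplx1 and Cplx2, the abundant forms, stayed between −0.18 and 0.38.

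Stxbp5, which encodes tomosyn, an inhibitor that occupies syntaxin, stood at 10.1, 10.01, 15.8 and 8.08 FPKM and rose in HDQ200/200 (0.60), where length correction left 0.13. Nsf, the ATPase that disassembles SNARE complexes, was at 0.30, 0.25 and 0.25. Its adaptors differed in HDQ200/200, Napa being lower there (88.4 to 59.4 FPKM, −0.57) and Napb higher (49.8 to 72.9 FPKM, 0.54), both just under the fold size. After length correction Napa was at −0.40.

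Of the 13 vesicle proteins 2 rose in HDQ150/150, 1 in HDQ200/200 and 1 in HDQ315/+. These are 15.4%, 7.69% and 7.69% higher, against 3%, 5.38% and 2.91% of all genes tested, so the HDQ200/200 share was near the background. Syp, which encodes the abundant vesicle membrane protein synaptophysin, stood at 209, 351, 248 and 348 FPKM. It was high in HDQ150/150 (0.74) and HDQ315/+ (0.73), and 0.24 in HDQ200/200. An antisense gene, Gm14703, overlaps 16.8% of its exon bases in GENCODE vM21, and reads of the strands cannot be told apart where counting ignores strand, which is not stated. Syn1, which tethers vesicles to the actin skeleton, stood at 96.9, 170, 128 and 137 FPKM. It rose in HDQ150/150 (0.80; ratio of scaled counts 1.83, interval 1.79 to 1.88) and was at 0.40 and 0.49 in the others. Syn2 followed at 0.34, 0.29 and 0.16. Syn3 stood at 3.43, 3.31, 5.87 and 3.04 FPKM and rose in HDQ200/200 only by the fold size (0.63), with 0.55 after length correction. Timp3 overlaps 14.1% of the Syn3 exon bases on the other strand.

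The SV2 transporters, which bind synaptotagmin, did not move together. Sv2b, a form abundant in cortex and hippocampus, stood at 33.9, 48.6, 50.8 and 28.5 FPKM (0.51, 0.57 and −0.24). Sv2c, the form enriched in striatum and midbrain, stood at 18.1, 12.04, 22.7 and 12.9 FPKM (−0.55, 0.31 and −0.46). None of these passed the fold size, and Sv2a stayed between 0.09 and 0.33. Rab3a, the main vesicle GTPase, was higher in HDQ150/150 (348 FPKM) and HDQ315/+ (341 FPKM) than in HDQ+/+ (240 FPKM) and HDQ200/200 (215 FPKM), at 0.54, 0.51 and −0.16. Rph3a, its effector rabphilin, was at 0.54, 0.31 and 0.24, and Rab3b, Rab3c, Syngr1 and Syngr3 stayed between −0.21 and 0.46.

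**Figure D2:**
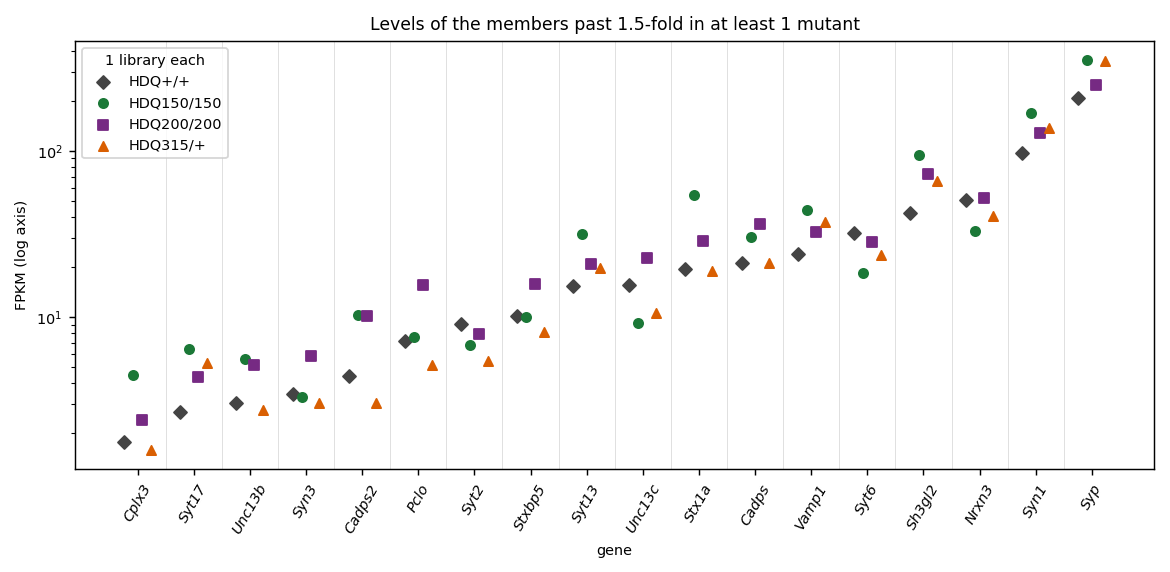
FPKM on a log axis of the 18 genes past 1.5-fold in at least 1 mutant, ordered by their level in HDQ+/+, with 1 point per library. Sh3gl2 in HDQ+/+ (42.2 FPKM) lies below all 3 mutants, while Stx1a is set apart in HDQ150/150 (54.5 FPKM) and Pclo in HDQ200/200 (15.6 FPKM).

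The 16 active zone and priming genes differed in sign between libraries on FPKM. In HDQ200/200 all 16 lay above 0 and 4 rose (25% higher and 0% lower, against 5.38% and 8.8% of all genes tested). In HDQ150/150 2 rose and 2 fell (12.5% each, against 3% and 3.34%). In HDQ315/+ none was called (against 2.91% and 2.13%) and 10 lay below 0. The medians of the 16 were 0.46 in HDQ200/200, 0.29 in HDQ150/150 and −0.15 in HDQ315/+. After length correction the same medians were 0.04, 0.40 and 0.04, and 10, 13 and 9 of the 16 lay above 0. In that order 1, 3 and none were then higher (6.25%, 18.8% and 0%, against 3.39%, 3.06% and 1.93% of all genes). None was lower, against 4.21%, 3.09% and 2.30%.

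Pclo stood at 7.19, 7.60, 15.6 and 5.12 FPKM, from 5890, 3802, 11633 and 2904 fragments. It rose in HDQ200/200 (1.02; ratio of scaled counts 2.26, interval 2.19 to 2.34). Its longest transcript, of 20084 bases, was the longest among the 56 genes, and length correction left 0.55. Bsn, the gene of the partner scaffold Bassoon, stood at 19.1, 23.6, 27.7 and 16.6 FPKM. Its HDQ200/200 value was 0.51 on FPKM but 0.97 on scaled counts, so the unit decided its call. Erc2, another scaffold of the same zone, stayed between −0.35 and 0.27.

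The Munc13 genes make vesicles ready for fusion and differed among themselves. Unc13a, the main form in forebrain, stood at 28.6, 25.3, 30.3 and 20.5 FPKM (−0.17, 0.08 and −0.46). Unc13b stood at 3.04, 5.56, 5.11 and 2.77 FPKM and rose in HDQ150/150 (0.70) and HDQ200/200 (0.59), the second value falling to 0.12 after length correction. Unc13c stood at 15.5, 9.16, 22.5 and 10.5 FPKM. It fell in HDQ150/150 (−0.70, ending at −0.58 after length correction) and was at 0.51 in HDQ200/200 and −0.52 in HDQ315/+, so that HDQ200/200 was the highest library and HDQ150/150 the lowest.

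The CAPS proteins prime dense-core vesicles. Cadps2 stood at 4.41, 10.2, 10.2 and 3.02 FPKM, from 764, 1135, 1612 and 343 fragments. It rose alike in HDQ150/150 and HDQ200/200 (1.05 in both; ratios of scaled counts 2.42, intervals 2.20 to 2.65 and 2.22 to 2.64), and length correction left 1.11 and 0.92. HDQ315/+ was the lowest library (−0.43). Cadps stood at 21.2, 30.3, 36.5 and 21.2 FPKM and rose in HDQ200/200 (0.75, or 0.43 after length correction).

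Nrxn3, a presynaptic adhesion molecule, stood at 50.3, 32.7, 52.2 and 40.4 FPKM. It fell in HDQ150/150 (−0.60), a call that ended after length correction (−0.50), and was at 0.05 and −0.31 in the other mutants. Nrxn2 (0.36, 0.03 and 0.23) was not called, and neither were the liprin genes Ppfia2 and Ppfia3, the RIM genes or Rimbp2, which links RIM to calcium channels; these stayed between −0.28 and 0.54. The Acss3 gene overlaps 22.3% of the exon bases of Ppfia2 on the other strand.

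Rims1, the gene of the active zone organiser RIM1, was split into 2 features of the deposited table, both on the minus strand of chromosome 1. The feature used here, from 22285924 to 22432846 (mm10), is the downstream part and stood at 23.1, 31.3, 34.1 and 18.9 FPKM (0.42, 0.54 and −0.28). The upstream part, from 22468186 to 22806260, stood at 5.64, 5.85, 17.9 and 1.75 FPKM, from 559, 386, 1828 and 127 fragments. The upstream part was high in HDQ200/200 and low in HDQ315/+, with log2 ratios of 0.05, 1.51 and −1.27.

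**Figure D3:**
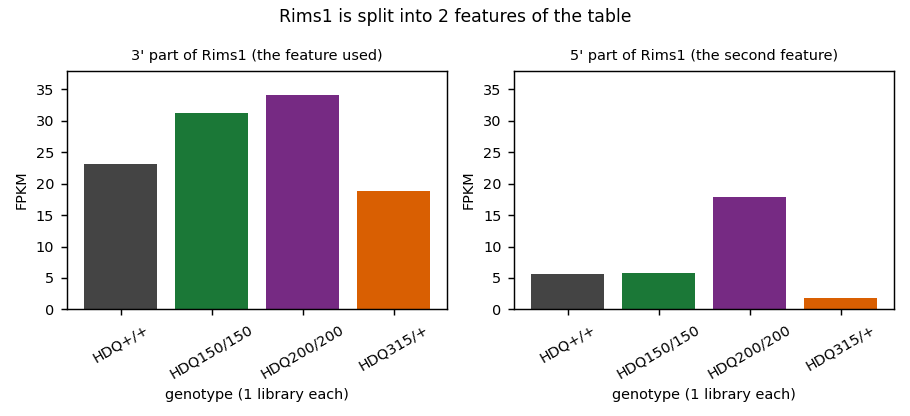
FPKM of the downstream and upstream features of Rims1, 1 bar per library, on the same scale. The upstream part is highest in HDQ200/200 (17.9 FPKM) and lowest in HDQ315/+ (1.75 FPKM), a wider range than that of the downstream part (18.9 to 34.1 FPKM).

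Apart from Sh3gl2, none of the 6 endocytosis genes was called in any mutant. That 1 gene is 16.7% of the 6 in each mutant, where 3%, 5.38% and 2.91% of all genes tested were higher. Dnm1, the fission GTPase of nerve terminals, stood at 172, 249, 157 and 220 FPKM (0.53, −0.13 and 0.35). Synj1, the phosphatase that strips clathrin coats, stood at 50.002, 55.4, 69.3 and 46.3 FPKM. Its HDQ200/200 value was 0.46 on FPKM and 0.94 on scaled counts. Amph was at 0.44, 0.31 and 0.22, Snap91, the clathrin assembly protein AP180, at 0.20, 0.52 and −0.04, and Bin1 at 0.15, −0.36 and 0.21.

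The 56 genes have long transcripts, with a median of 4810 bases for the longest transcript in GENCODE vM21 against 3444 bases for all genes tested, and 41 of the 56 lay above that value. In HDQ200/200 the 28 genes longer than the members' median had a median log2 ratio of 0.43 and the 28 shorter ones 0.27. After length correction the order turned, to 0.05 and 0.28. In HDQ315/+ the longer genes lay at −0.10 and the shorter at 0.22 (0.02 and 0.13 after correction), and in HDQ150/150 at 0.22 and 0.37 (0.31 and 0.36). Over all genes tested, the HDQ200/200 median went from −0.53 in the class of shortest transcripts to 0.47 in that of the longest, so the release genes were read there against a slope. Over the same classes it went from 0.11 to −0.12 in HDQ150/150 and from 0.31 to −0.20 in HDQ315/+.

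**Figure D4:**
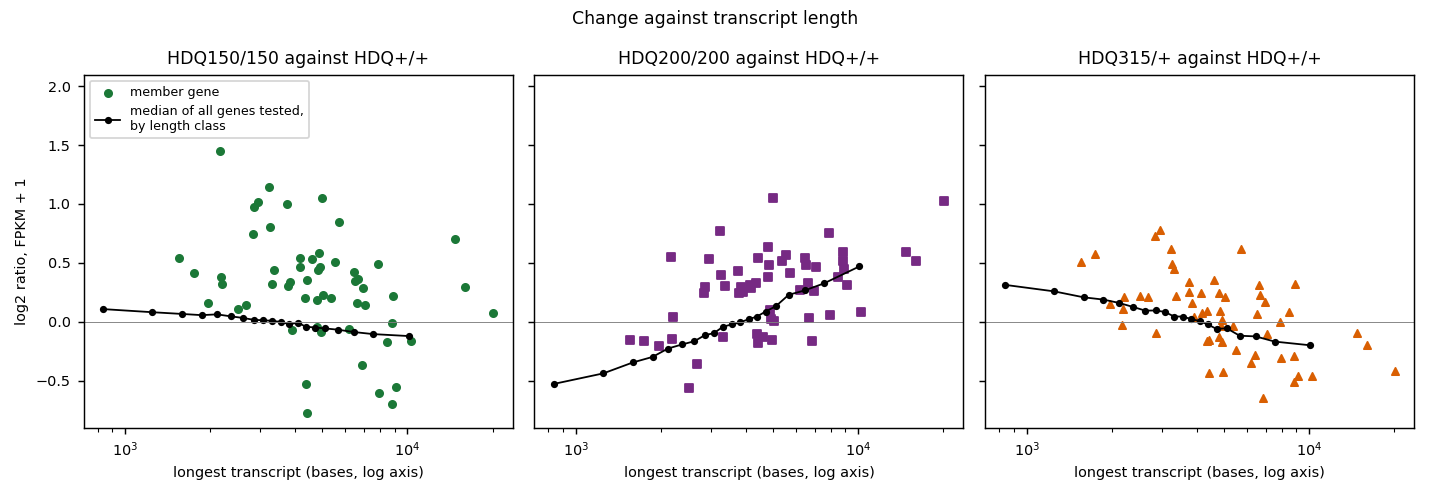
Log2 ratio to HDQ+/+ (FPKM + 1) against the longest transcript in bases (log axis), 1 point per release gene, with the median of all genes tested in 20 length classes as a black line. The line climbs from −0.53 to 0.47 in HDQ200/200 and falls with length in the other mutants, while many release genes of HDQ150/150 lie above the line.

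Within paralogue families the members' shares of the summed FPKM were compared, as levels per length. Cadps2 made up 17.2%, 25.3%, 21.9% and 12.5% of the CAPS sum over the 4 libraries. Unc13b went from 6.46% of the Munc13 sum to 13.9%, 8.82% and 8.20%, whereas Unc13c was at 32.9% in HDQ+/+ and 22.9%, 38.9% and 31.1% in the mutants. Sv2c went from 15.7% of the SV2 sum to 9.01%, 14.8% and 11.8%, and Sv2b from 29.4% to 36.3%, 33.1% and 26.1%. The share of Vamp1 beside Vamp2 was 7.09% in HDQ+/+ and 10.05%, 9.07% and 9.29% in the mutants, above the wild type in each. Syt2 beside Syt1 made up 4.70% in HDQ+/+ and 2.65%, 3.01% and 2.69% in the mutants, below it in each. Cplx1 and Cplx2 were near parity in HDQ+/+ (49.0% and 50.5%) and HDQ200/200 (49.1% and 50.1%), with Cplx1 ahead in HDQ150/150 (56.7%) and HDQ315/+ (53.9%).

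**Figure D5:**
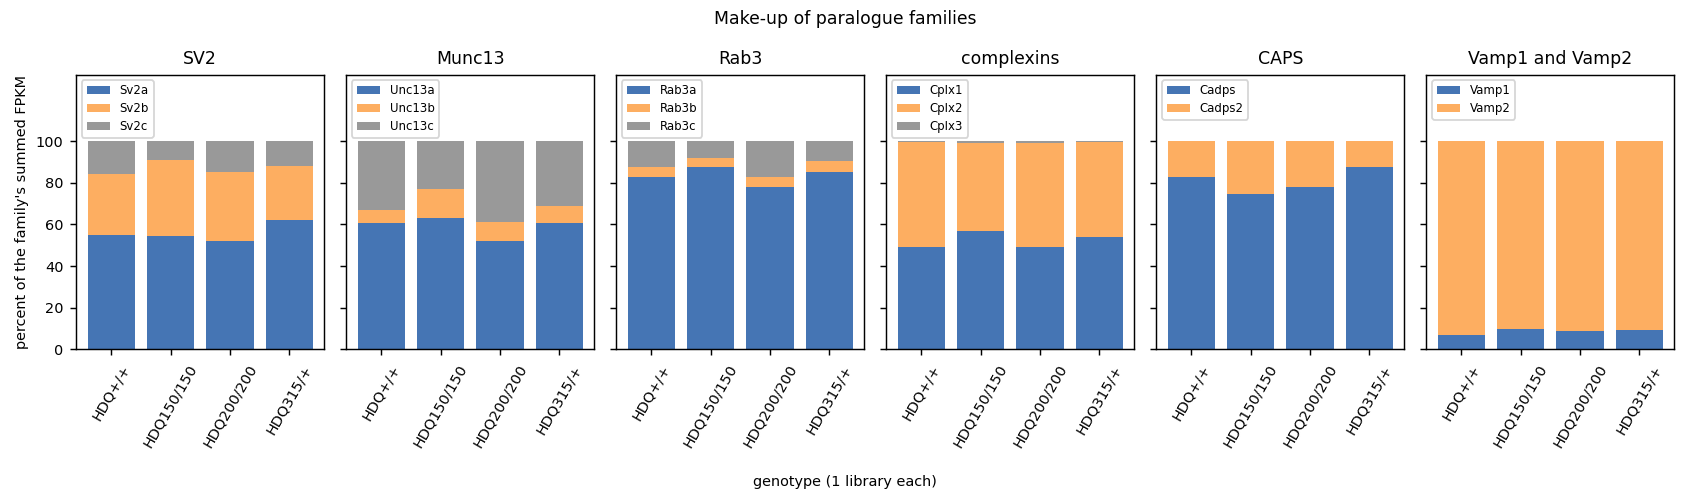
Share of each paralogue in the summed FPKM of its family (percent, 1 bar per library, each bar adding up to 100). Cadps2 takes 25.3% in HDQ150/150 and 12.5% in HDQ315/+, and Sv2c takes 15.7% in HDQ+/+ and 9.01% in HDQ150/150.

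Between the mutants, 12 of the 56 genes differed between HDQ200/200 and HDQ150/150, a total near the share of all genes tested (18.4%). In HDQ200/200 7 were higher and 5 lower (12.5% and 8.93%, against 7.62% and 10.8% of all genes). Unc13c (1.21), Pclo (0.95) and Sv2c (0.86) were higher in HDQ200/200, and Stx1a (−0.90) and Rab3a (−0.69) were lower. Length correction turned the split to 1 higher and 7 lower (1.79% and 12.5%, against 3.44% and 3.56% of all genes). HDQ315/+ had none higher and 8 lower than HDQ150/150 (background 2.53% and 1.98%, 4.51% in all), led by Stx1a and Cadps2 (−1.48 each) and Cplx3 (−1.07), with Snap25 at −0.62. After length correction the count was again 8 lower and none higher (14.3% and 0%, against 2.45% and 1.70% of all genes). Against HDQ200/200, HDQ315/+ had 3 higher (Napa at 0.79, Syt5 at 0.74 and Rab3a at 0.67) and 13 lower, led by Cadps2 (−1.48) and Pclo (−1.44). These are 5.36% higher and 23.2% lower, against 18.2% and 11% of all genes, and the total was near the 29.2% of all genes. In this last pair the median of all genes was 0.11. Centring on it gave 2 higher and 18 lower (3.57% and 32.1%, against 12.9% and 15.4% of all genes). Length correction gave 1 higher and 6 lower (1.79% and 10.7%, against 6.53% and 6.26%).

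Other genes of the same machinery, from a list of 69 of which 66 could be tested, were called as follows. In HDQ150/150, 4 of the 66 rose and 1 fell (6.06% and 1.52%, against 3% and 3.34% of all genes; median 0.04). In HDQ200/200 6 rose and 5 fell (9.09% and 7.58%, against 5.38% and 8.8%), with a median of 0.07, or −0.01 after length correction, and the share that fell was near the background. In HDQ315/+ 1 rose and none fell (1.52% and 0%, against 2.91% and 2.13%; median 0.02). In HDQ150/150 the highest were the vesicular glutamate transporters Slc17a7 (57.0 to 199 FPKM, 1.79), a cortical marker, and Slc17a6 (1.30 to 3.66 FPKM, 1.02), a thalamic one, and Doc2a (3.06 to 6.80 FPKM, 0.94), while Rph3al fell (4.39 to 1.74 FPKM, −0.98). In HDQ200/200 Slc17a7 (0.89), Stxbp6 (0.80) and Slc17a6 (0.69) were highest, and Rph3al (−0.96), Vamp8 (−0.95) and the vesicular acetylcholine transporter Slc18a3 (−0.70) were lowest. The single gene higher in HDQ315/+ was Slc17a6 (14.8 FPKM, 2.78), and the vesicular GABA transporter Slc32a1 stood at 95.9, 73.8, 68.9 and 84.5 FPKM over the 4 libraries and was not called.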

How the data were processed

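The deposited table holds, per the file headers, an FPKM value and a count value for each of 4 libraries, whose columns were matched to genotypes by name. Per the submitters' processing notes the build was mm10 and the tools, in no stated order, were Cuffnorm, Cuffdiff, Cufflinks 2.1.1, Bowtie2 2.1.0, TopHat, TopHat2 2.0.11 and bcl2fastq 1.8.4. Annotation, strandedness and scaling are not given. The authors' count columns hold a scaled signal: between 98.4% and 98.5% of the values under 5000 fragments, leaving out those that round to 0, were whole multiples, to within 0.05, of a single step per library, and dividing by the step (0.781, 1.27, 0.895 and 1.13 for HDQ+/+, HDQ150/150, HDQ200/200 and HDQ315/+) gave fragments. No count test was run.

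Unnamed features (5934, with 0.675% to 0.829% of the scaled counts) and short non-coding RNAs (692) were left out, and 12865 genes with a mean FPKM of at least 1 were tested. Where a symbol repeats (Rims1, Syngr1) the feature with the higher mean was used. Ratios are on log2(FPKM + 1) and calls need 1.5-fold; intervals are exact Clopper-Pearson at 95%. A transcript length from GENCODE vM21 (GRCm38, the mm10 build) was found for 94.1% of the genes tested and for all 56 members, and length correction used 20 classes. Alternatives were a pseudocount of 0.1, scaled counts, median centring, length correction, a mean FPKM of at least 10 and no minimum. Named were the members called in any mutant, the 3 highest and 3 lowest by level and by change, and members of the same role for context, the latter, and Slc32a1, after their values were seen. Some genes of the pathway list are not reported here by name. The members and lists were chosen with earlier results of these data known. The steps were tested on simulated data. Python 3.11.15, pandas 2.3.3, NumPy 2.4.6 and SciPy 1.17.1 were used.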

Additional observations from a re-analysis of the deposited data

Results flagged for a closer look

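A second feature of the table named Rims1, not used for the gene's own value, stood at 17.9 FPKM in HDQ200/200 against 5.64 FPKM in HDQ+/+, past the fold size. A second feature named Syngr1, with the same coordinates as the one used (chromosome 15, 80090805 to 80119501), was listed at 0 in HDQ+/+ and stood at 0.530 FPKM in HDQ150/150, 0.759 FPKM in HDQ200/200 and 0.912 FPKM in HDQ315/+, from 5, 11 and 10 fragments. No replicate exists to set these values against.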

How the results depend on the processing

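No paired analysis was possible because each genotype has 1 library, and no library could be left out. With scaled counts 15 members were higher in HDQ200/200 (26.8%, against 10.0039% of all genes; median 0.40), and 7 were higher and 3 lower in HDQ315/+ (12.5% and 5.36%, against 4.77% and 5.46%), so the lower share was at the background. Median centring gave 12 higher in HDQ200/200 (21.4%, against 7.02% of all genes; median 0.36) and 2 higher in HDQ315/+. Length correction gave 1 lower in HDQ150/150 (against 3.09% of all genes), 4 higher in HDQ200/200 (against 3.39%, median 0.16) and 0 lower in HDQ315/+ (against 2.30%). It left 7 called between HDQ315/+ and HDQ200/200, where 6.53% of all genes were higher and 6.26% lower. With a mean FPKM of at least 10, which leaves 48 members, 6 were higher in HDQ150/150, 3 in HDQ200/200 and 0 lower in HDQ315/+, and 5 differed between HDQ315/+ and HDQ150/150. No share of all genes was computed at this minimum. At the main minimum 3% of all genes were higher in HDQ150/150 and 5.38% in HDQ200/200, the second being near the 3 of 48. The filters leave out members by construction; for the other settings the cause was not tested. A pseudocount of 0.1 moved no count of members by over 1.5 times. It moved no median by more than the median counting half-width of a single gene. With no minimum the members were the same 56, so that setting could not differ. Of the 13, 7 and 5 calls in HDQ150/150, HDQ200/200 and HDQ315/+, length correction kept 11, 2 and 3. No called member changed sign with scaled counts. The other settings could not change the sign of a call. A smaller pseudocount keeps it, and centring and length correction subtracted medians below the fold size. Depth limits the low members most, Cplx3 in HDQ315/+ resting on 154 fragments.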
